A study of Neurospora crassa with 24 samples.

Results

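The abundance of mRNA at the subjective morning was set against that of the early night in the WT strain of *Neurospora crassa*. The morning window held the cultures harvested 12, 14 and 16 h after lights off, and the early night window those harvested 2, 4 and 6 h after lights off. Genes were taken where CPM, the count scaled to a library total common to all, averaged 2 or more over these 6 libraries, which gave 7175 of the 9730 genes in the tables and left 2555 untested. The 6 libraries are from a series of 24, with 12 of WT (FGSC #2489, wild type) and 12 of ΔMSN1 (FGSC #11345), in which *msn-1* (NCU02671) is knocked out. Each library came from 1 liquid culture, at 0 to 22 h in steps of 2 h.

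Both strains were grown in Vogel's medium that also held L-arginine (0.5%), biotin (10 ng/ml) and glucose (2%). They had 2 days of 11 h of light and 11 h of dark before the release to constant dark. Cultures were moved in a staggered way and all were harvested within 10 h. The 3 cultures of a window differed by 2 h steps in their time in darkness, so the spread within a window holds any trend over those hours as well as the variation between cultures. A p-value below measures the difference between windows against that spread. No time was repeated within a strain. As the labels name a lane for the ΔMSN1 libraries alone, an effect of the lane and one of the strain cannot be told apart.

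The clock of *N. crassa* is a feedback loop between transcription and protein. WC-1 and WC-2 together form the white collar complex, which switches on *frq*. The FRQ protein, held by its partner FRH and phosphorylated step by step by casein kinases, then inhibits the complex until it is degraded. In darkness *frq* RNA is low in the early night and high around the subjective morning, and the white collar complex and the factors below it pass the rhythm on to clock-controlled genes. The comparison asks which transcripts stood apart between the windows, which lie at opposite parts of the cycle. With a single course in darkness, clock phase and time since lights off cannot be told apart.

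The 3 morning libraries summed to 3088445 to 4285391 estimated counts and the 3 early night libraries to 4266504 to 8001744. The ranges overlap only in that the culture at 12 h was slightly deeper than that at 2 h. The median library had 3119780 counts in the morning and 6380429 in the early night, so depth went largely with the window. After all libraries were thinned to one depth, 242 genes were called, 208 of them among the 257 called below. The 10 most abundant genes took 23.5 to 26.1% of the morning libraries and 21.2 to 22.9% of the early night libraries. Values below are CPM after scaling by the trimmed mean of M values (TMM), set separately for each strain, so levels are compared only within a strain. The deposited values fell with gene length in a way that read counts would not, and CPM may not stand for reads. The conidiation markers summed to 2064 to 3333 CPM in the morning and 4033 to 6189 CPM in the early night, most of it from *eas*. The list has 7 genes, of which 6 were tested, and *con-13* was at 0 in all 6 libraries. Of those tested, 2 were lower in the morning (33.3%, against 1.11% of all tested genes). Sexual development markers summed to 1281 to 1464 CPM in the morning and 1488.5 to 1960 CPM in the early night, most of it from *asd-1*. In that list 4 of 8 genes were tested, none was called, and *matA-2* was at 0 in all 6. The part of these markers in the results was not tested. In bulk cultures like these, fewer cells of a kind and less RNA per cell cannot be told apart.

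In the WT strain 257 of 7175 genes differed between the windows (3.58%; edgeR quasi-likelihood test, two-sided, Benjamini-Hochberg adjusted p < 0.05). Of these, 177 were higher in the morning (2.47% of tested genes) and 80 were lower (1.11%). At an unadjusted p under 0.05 there were 1338 genes, 741 higher and 597 lower. Among all tested genes 49.2% had a fold change above 1, and the median log2 difference was -0.0035. The higher genes had a median fold of 2.08, with 98 at 2-fold or more and 16 at 4-fold or more. The lower genes had a median fold of 1.85, with 35 at 2-fold or more and 6 at 4-fold or more. The 3 morning cultures lay above the 3 early night cultures in 177 of 177 higher genes and below them in 80 of 80 lower genes. Over all tested genes, without a call, the windows did not overlap with the morning above in 12.2% and with the morning below in 11.5%. In 6222 genes (86.7%) the 95% interval of the difference lay within 2-fold either way.

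The count rested on single cultures. It was 42 without the culture at 4 h, 69 without 14 h and 108 without 12 h, but 405 without 16 h, 227 without 2 h and 277 without 6 h. No called gene changed its direction in any of these fits. A group of 34 genes stayed called in all 17 alternative fits. Of the genes described below, these were *frq*, *ccg-1*, *fl*, *tcu-1*, *tcu-3*, NCU00829, NCU02884, NCU00031, NCU01735, NCU01861, NCU08193, NCU08412, NCU06326, NCU04823, NCU04266, NCU08715, NCU06255, NCU08455, NCU16445, NCU04197, NCU01391, NCU09832, NCU09874, NCU06911, *aap-8*, *spr-7*, *gh61-9* and *ce12-1*. Every other gene called below lost its call in at least 1 of them.

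**Figure D1:**
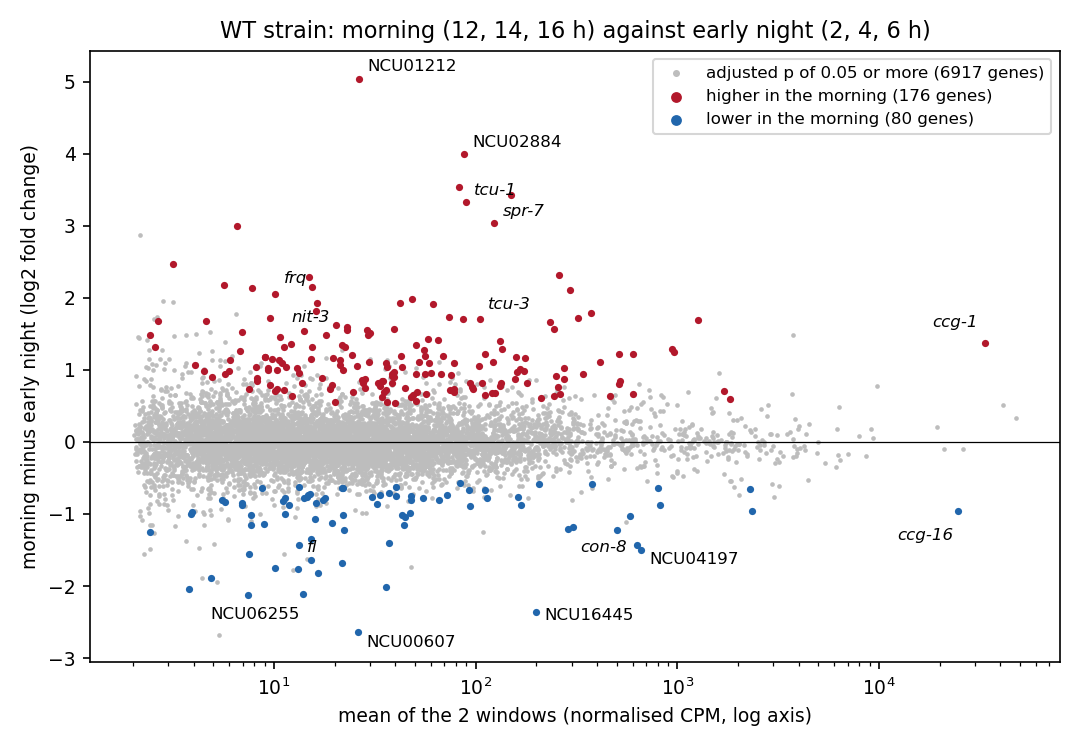
Difference between the windows in the WT strain (log2 fold change, morning minus early night) against the mean normalised CPM of the windows on a log axis, 1 point per gene. The points above 0 include *frq*, *ccg-1* and the copper transporters, and those below include *fl*, *con-8* and *ccg-16*; 2 genes at 0 in all early night libraries, 1 of them called, are not drawn.

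Of the core clock genes, only *frq* passed the test, among 11 tested (9.09%, against 2.47% of all tested genes called higher). *frq* stood at 13.2, 15.7 and 20.4 CPM at 12, 14 and 16 h, against 3.51, 3.98 and 4.27 CPM at 2, 4 and 6 h. Its morning level was 4.15-fold higher (log2 difference 2.05 ± 0.21 SE, edgeR adjusted p = 0.00231). At the times outside the windows *frq* was 18.2 CPM at 0 h, the time of lights off, 4.72 at 8 h, 11.3 at 10 h, 13.01 at 18 h, 7.09 at 20 h and 7.46 at 22 h. The GATA factor gene *wc-2* had 20.6, 21.0 and 18.4 CPM in the morning against 26.6, 26.9 and 31.3 CPM in the early night, a difference of -0.49 ± 0.13 that missed the threshold (adjusted p = 0.0754). Its partner gene *wc-1* averaged 4.60 ± 0.199 CPM in the morning and 5.50 ± 0.276 CPM in the early night (SD, n = 3 each; log2 difference -0.28, adjusted p = 0.601 by edgeR). *frh*, which encodes the RNA helicase that binds FRQ, averaged 7.36 ± 1.02 CPM in the morning and 5.45 ± 1.098 CPM in the early night (adjusted p = 0.317 by edgeR, n = 3 each). The kinase genes *ck-1a*, *cka*, *ckb-1*, *ckb-2* and *prd-4*, the F-box gene *fwd-1* and the light receptor gene *vvd* had log2 differences between -0.44 and 0.33. The median over the 11 genes was 0.03.

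Of 10 clock-controlled genes tested, edgeR called 1 higher and 1 lower in the morning (10% each, against 2.47 and 1.11% of all tested genes). DESeq2 called 3 higher and 2 lower. *ccg-1*, a glucose-repressible gene and among the most abundant transcripts of the cultures, had 54340, 51602 and 39254 CPM in the morning against 18048, 18328 and 19835 CPM in the early night (log2 difference 1.37 ± 0.16, edgeR adjusted p = 0.00443). *ccg-16*, which the study lists with a CVNH domain, moved the other way, with 17337, 17572 and 15330 CPM in the morning against 37962, 33875 and 26445 CPM in the early night (-0.97 ± 0.16, adjusted p = 0.0166). For both genes the windows were well apart, and the *ccg-16* values fell over the early night times while those of *ccg-1* were level. *ccg-9*, a gene of trehalose synthesis, averaged 14.8 ± 3.44 CPM in the morning and 6.72 ± 2.94 CPM in the early night, with an adjusted p of 0.0813 (edgeR, n = 3 each). *gpd-1*, which encodes glyceraldehyde-3-phosphate dehydrogenase, averaged 12394 ± 2095 CPM in the morning and 7211 ± 2165 CPM in the early night (adjusted p = 0.098 by edgeR, n = 3 each). The hydrophobin gene *eas* had 2952, 1608 and 2122 CPM in the morning against 3081, 3033 and 5230 CPM in the early night, and was not called by edgeR (adjusted p = 0.173). The other 5, *ccg-6*, *ccg-8*, *ccg-13*, *ccg-14* and *ccg-15*, had log2 differences between -0.29 and 0.46.

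In the list of 9 clock output factors, *sub-1* rose and *fl* fell (11.1% each, against 2.47 and 1.11% of all tested genes). Being in the list does not show that the clock acts through a gene. The transcription factor gene *sub-1* had 22.6, 23.3 and 27.8 CPM in the morning against 14.1, 12.3 and 16.5 CPM in the early night (log2 difference 0.79 ± 0.16, edgeR adjusted p = 0.0295). *fl* encodes the zinc cluster factor that is needed for conidiation. It had 12.6, 11.7 and 12.1 CPM in the morning against 28.9, 22.3 and 28.6 CPM in the early night (-1.13 ± 0.16, adjusted p = 0.00789). The repressor gene *csp-1* averaged higher in the morning by 0.36 and was not called (adjusted p = 0.222 by edgeR). *adv-1*, *sah-1*, *rco-1*, *rcm-1*, *ff-7* and *msn-1* itself had log2 differences between -0.31 and 0.24. Of the genes that mark conidiation, *fl* and *con-8* fell. *con-8*, a conidiation gene, had 220, 326 and 477 CPM in the morning against 1028, 898 and 842 CPM in the early night (-1.43 ± 0.25, adjusted p = 0.0186). *con-6* and *con-10* had differences of 1.19 and 0.85 that edgeR did not call. DESeq2 called 1 marker of this list higher and 3 lower. The opsin gene *nop-1* fell as well, with 20.1, 22.3 and 26.6 CPM in the morning against 45.4, 41.6 and 39.3 CPM in the early night (-0.86 ± 0.14, adjusted p = 0.014).

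**Figure D2:**
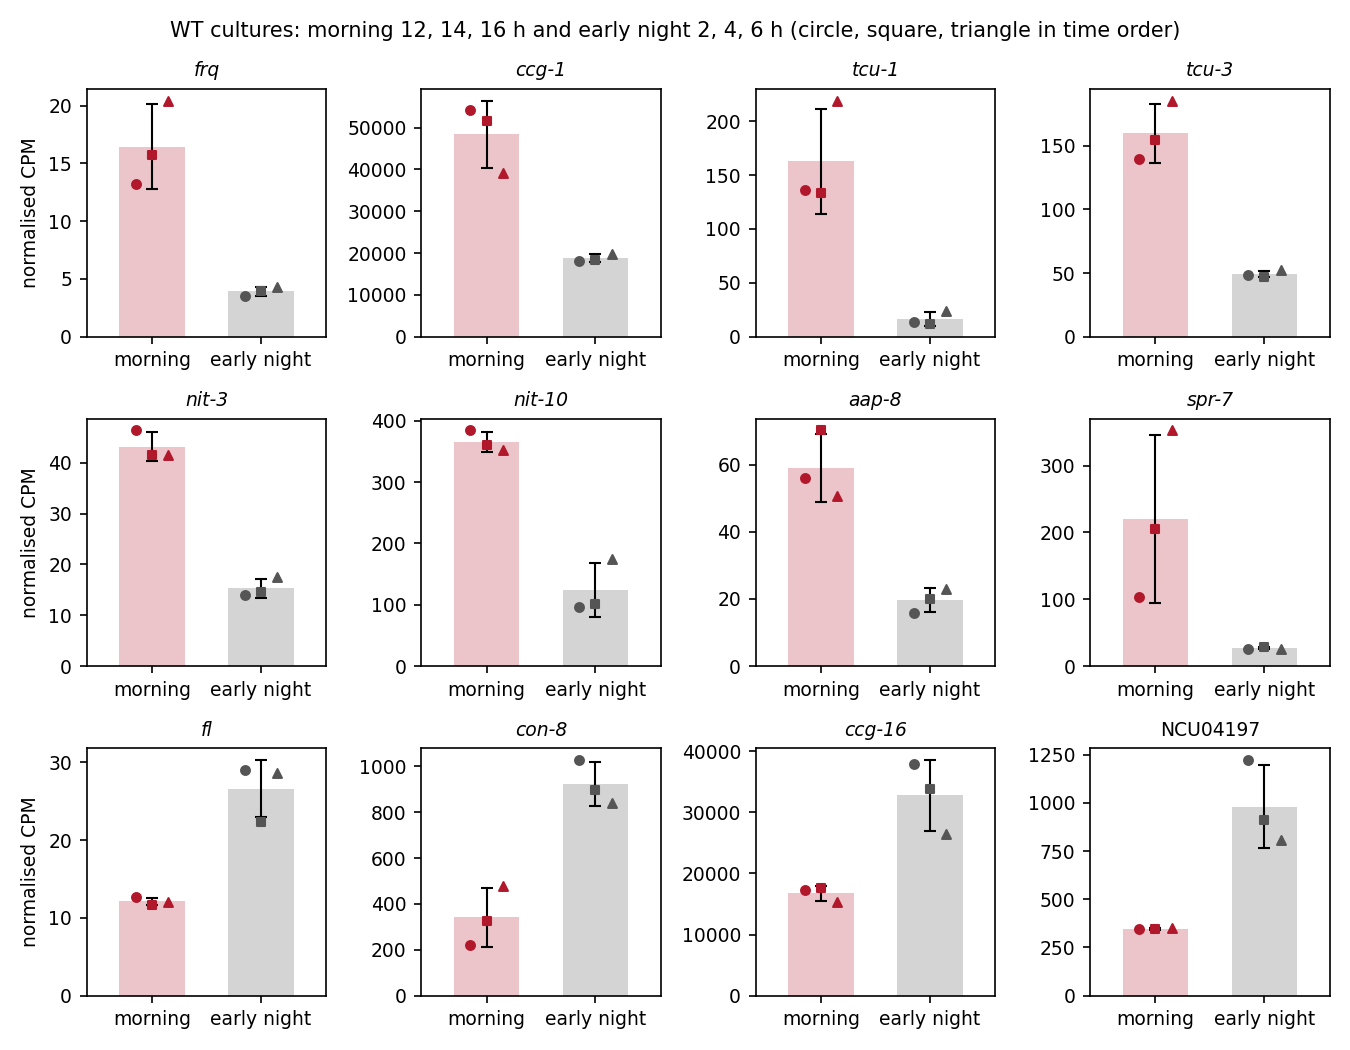
Normalised CPM of 12 genes in the WT cultures of the morning (left, 12, 14 and 16 h) and of the early night (right, 2, 4 and 6 h); bars are means with SD, n = 3 each, and symbols give the cultures in time order. The genes were drawn from called genes, in all of which the windows do not overlap, as in *frq* with 13.2 to 20.4 CPM in the morning and 3.51 to 4.27 CPM in the early night. Over all tested genes the windows did not overlap in 12.2% with the morning above and in 11.5% with it below.

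Genes of copper uptake were among the largest and clearest rises. *tcu-1*, a high-affinity copper transporter gene of the plasma membrane, had 136, 133 and 219 CPM in the morning against 13.2, 12.0 and 23.5 CPM in the early night (log2 difference 3.33 ± 0.30, edgeR adjusted p = 0.0023). Its neighbour on the chromosome, NCU00829, which the study names a ferric reductase, had 110, 94.7 and 250 CPM in the morning against 11.7, 11.9 and 15.6 CPM in the early night (3.54 ± 0.38, adjusted p = 0.00285). *tcu-3*, another copper transporter gene, had 140, 155 and 185 CPM in the morning against 48.5, 47.2 and 52.1 CPM in the early night (1.70 ± 0.14, adjusted p = 0.0023). In all of these the culture at 16 h was the highest. *tcu-2* had 336, 348 and 336 CPM in the morning against 274, 271 and 269 CPM in the early night, a difference of 0.33 ± 0.11 that was not called (adjusted p = 0.152). The list of copper and iron transport has 4 genes, of which 3 were tested, *tcu-1*, *tcu-2* and *tcu-3*. Of these 3, 2 were called, both higher (66.7%, against 2.47% of all tested genes).

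The genes that take up and reduce nitrate rose in the morning. *nit-3*, which encodes nitrate reductase, had 46.4, 41.5 and 41.6 CPM in the morning against 14.0, 14.5 and 17.4 CPM in the early night (1.49 ± 0.13, edgeR adjusted p = 0.0023). The nitrate transporter gene *nit-10* had 384, 361 and 353 CPM in the morning against 95.9, 101 and 174 CPM in the early night (1.56 ± 0.22, adjusted p = 0.00837). *nit-6*, which encodes nitrite reductase, had 409, 441 and 495 CPM in the morning against 235, 188 and 279 CPM in the early night (0.94 ± 0.17, adjusted p = 0.0197). In each of the 3 genes the lowest value of the whole WT series was at 10 h, where *nit-3* stood at 3.21 CPM, *nit-10* at 42.03 CPM and *nit-6* at 116 CPM. The culture at 10 h, just before the morning window, was thus the lowest, and that at 12 h the highest for *nit-3* and *nit-10*. Of the 11 genes of nitrogen control and assimilation, 3 were higher (27.3%, against 2.47% of all tested genes) and none was lower. In 10 of them the difference was above 0, as in 49.2% of all tested genes, and the median was 0.45. DESeq2 called 5, all higher. The glutamine synthetase gene *gln-1* averaged 350 ± 49.7 CPM in the morning and 229 ± 27.6 CPM in the early night and was not called (adjusted p = 0.0595 by edgeR, n = 3 each). The regulators *nit-2* and *nit-4* had differences of 0.21 and 0.36 and were not called.

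The following higher genes were picked after their values were seen and belong to no list, so they give no count for a group. The amino acid permease gene *aap-8* had 56.0, 70.2 and 50.7 CPM in the morning against 16.0, 20.1 and 22.9 CPM in the early night (1.57 ± 0.17, edgeR adjusted p = 0.00345). *aap-20*, named a general amino acid permease by the study, averaged 10.7 ± 0.951 CPM in the morning and 5.82 ± 1.07 CPM in the early night (adjusted p = 0.0318 by edgeR, n = 3 each). A row of 3 adjacent genes rose together: NCU01064 by 1.93, NCU01065, named an ammonium transporter, by 1.35, and *lao*, an L-amino acid oxidase gene, by 1.03. The protease gene *spr-7* had 104, 204 and 353 CPM in the morning against 25.5, 28.7 and 25.9 CPM in the early night (3.04 ± 0.39, adjusted p = 0.00593). NCU01348, named an agmatinase, had 378, 416 and 270 CPM in the morning against 61.1, 80.6 and 192 CPM in the early night (1.67 ± 0.38, adjusted p = 0.0491).

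Of 47 genes of amino acid synthesis, 2 were called higher (4.26%, against 2.47% of all tested genes) and none lower, and DESeq2 called 4, all higher. By sign alone 40 had a difference above 0 and 13 had an unadjusted p under 0.05, all higher. Of all 7175 tested genes, 741 were higher at that unadjusted p and 597 lower. The median was 0.25, against -0.0035 for all tested genes. *trp-2*, which encodes anthranilate synthase, had 60.6, 64.7 and 65.4 CPM in the morning against 38.0, 40.0 and 40.0 CPM in the early night (0.69 ± 0.11, edgeR adjusted p = 0.0146). *trp-3*, the tryptophan synthetase gene, had 146, 158 and 107 CPM in the morning against 72.5, 77.2 and 84.0 CPM in the early night (0.81 ± 0.16, adjusted p = 0.0299). The argininosuccinate lyase gene *arg-10* averaged 238 ± 67.5 CPM in the morning and 131 ± 9.93 CPM in the early night (adjusted p = 0.0539 by edgeR, n = 3 each). Outside the list, and picked after their values were seen, *cpc-3*, a kinase gene of cross-pathway control, rose by 0.88 and NCU00915, an aspartyl-tRNA synthetase gene, by 0.78. In glycolysis all 8 tested genes had a positive difference, from 0.27 to 0.78 with a median of 0.46, and none was called by edgeR or limma-voom, while DESeq2 called 3, all higher. There 6 had an unadjusted p under 0.05, among them *emp-3* (phosphofructokinase) and *emp-6* (phosphoglycerate mutase) with adjusted p of 0.098 and 0.0908.

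Enzymes that degrade pectin and other plant polysaccharides did not move one way. Of 22 tested, 2 were higher (9.09%) and 1 was lower (4.55%), against 2.47 and 1.11% of all tested genes. DESeq2 called 2 higher and 2 lower. The exopolygalacturonase gene *gh28-2* had 32.3, 40.4 and 33.8 CPM in the morning against 17.4, 21.2 and 21.3 CPM in the early night (0.81 ± 0.14, edgeR adjusted p = 0.0176). *gh61-9*, of the family of oxidative polysaccharide enzymes, had 86.2, 99.6 and 101 CPM in the morning against 46.1, 47.0 and 32.5 CPM in the early night (1.19 ± 0.16, adjusted p = 0.00789). The abundant polygalacturonase gene *gh28-1* was the one that fell, with 1640, 1968 and 1713 CPM in the morning against 2667, 2929 and 2780 CPM in the early night (-0.65 ± 0.13, adjusted p = 0.0291). Genes outside the list were picked after their values were seen, so they give no count for a group. Of these, the pectate lyase gene NCU06326 had 631, 718 and 390 CPM in the morning against 162, 173 and 169 CPM in the early night (1.79 ± 0.21, adjusted p = 0.00433). *ce8-1* (pectinesterase, adjacent to *gh61-9*) rose by 1.32, *ce12-1* (rhamnogalacturonan acetylesterase) by 1.43 and NCU08412 (endo-1,4-mannanase) by 1.54.

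All 9 histone genes tested had a difference below 0, with a median of -0.53, and 1 was called by edgeR and limma-voom, against 4 by DESeq2, all lower. By edgeR this was 11.1% of the list, against 1.11% of all tested genes called lower. The edgeR call was *hH4v*, with 70.3, 68.9 and 63.2 CPM in the morning against 107, 105 and 88.7 CPM in the early night (-0.57 ± 0.13, edgeR adjusted p = 0.0465). *hH4-1* had 1626, 1449 and 1429 CPM in the morning against 2644, 2488 and 1831 CPM in the early night (adjusted p = 0.0654). *hH2B* had 1668, 1395 and 1431 CPM in the morning against 2383, 2262 and 1880 CPM in the early night (adjusted p = 0.0745). Of 32 tested genes of histone modification and DNA methylation none was called by edgeR, limma-voom or DESeq2. In the edgeR test 5 of them had an unadjusted p under 0.05, as did 1338 of all 7175 tested genes. Single lower genes of DNA replication, picked after their values were seen and from no list, were *drc-3* (a GINS subunit, -1.01), *dra-2* and *dra-5* (subunits of replication factor C, -0.77 and -0.62), *pole-4* (-0.78) and *rnh-1* (ribonuclease H2, -0.72). *pyr-4*, which encodes orotidine-5′-phosphate decarboxylase of pyrimidine synthesis, had 120, 111 and 132 CPM in the morning against 208, 216 and 192 CPM in the early night (-0.76 ± 0.12, adjusted p = 0.0146).

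Carbon and cell wall genes gave single calls by edgeR. *acu-6*, which encodes phosphoenolpyruvate carboxykinase of gluconeogenesis, had 11.8, 14.3 and 5.196 CPM in the morning against 29.4, 45.1 and 24.4 CPM in the early night (-1.67 ± 0.33, edgeR adjusted p = 0.0291), while the other 6 genes of its list were not called. *tca-17*, which the study names an L-lactate dehydrogenase, had 192, 205 and 243 CPM in the morning against 130, 105 and 93.5 CPM in the early night (0.97 ± 0.16, adjusted p = 0.0147). *ldh-3*, named a D-lactate dehydrogenase, averaged 10.3 ± 0.272 CPM in the morning and 17.8 ± 2.78 CPM in the early night (adjusted p = 0.0308 by edgeR, n = 3 each). Of 40 fungal cell wall genes, the chitinase gene *chit-1* rose by 0.98 (adjusted p = 0.048). The wall protein gene *acw-12* fell, with 554, 610 and 579 CPM in the morning against 1112, 1091 and 1005 CPM in the early night (-0.88 ± 0.12, adjusted p = 0.00759). These edgeR calls were 2.5% each way, against 2.47 and 1.11% of all tested genes. At an unadjusted p under 0.05 in the edgeR test, 2 wall genes were higher and 10 lower. Of all 7175 tested genes, 741 were higher and 597 lower at that p. In this list DESeq2 called 1 gene higher and 4 lower. Of 11 antioxidant genes 1 was called (9.09%, against 2.47% of all tested genes called higher). This was the thioredoxin gene *trx*, which rose by 0.68 (edgeR adjusted p = 0.0359).

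No gene was called by edgeR in several lists. These were the 9 cytosolic ribosomal proteins (median log2 difference -0.055), the 30 proteasome subunits (0.068), the 29 genes of complex I (-0.0069), the 14 of the vacuolar ATPase (0.027), 21 of 22 of mitochondrial import (-0.14) and the 21 of the peroxisome (-0.035). The same held for 13 heat shock genes (0.19), 5 of carotenoid synthesis (-0.13), 66 of 78 protein kinases (0.051) and 31 of 33 transcription factors (-0.011). At an unadjusted p under 0.05 in the edgeR test there was no ribosomal protein or vacuolar ATPase gene. There were 1 proteasome gene, 4 heat shock genes, 1 carotenoid gene and 6 kinase genes, all higher. Lower were 1 gene of complex I, 2 of mitochondrial import and 3 of the peroxisome, and of the transcription factors 3 were higher and 2 lower. Over all 7175 tested genes 741 were higher and 597 lower at that unadjusted p. Of the genes in the lists named in this paragraph, limma-voom called none and DESeq2 called 1, a lower gene of the peroxisome. Other lists without an edgeR call are not all named here, and some had calls by another tool. In starch and sucrose hydrolysis limma-voom called 1 gene and DESeq2 called 1, each higher. DESeq2 also called 2 higher genes of glycogen and trehalose and 1 of sulfur control.

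**Figure D3:**
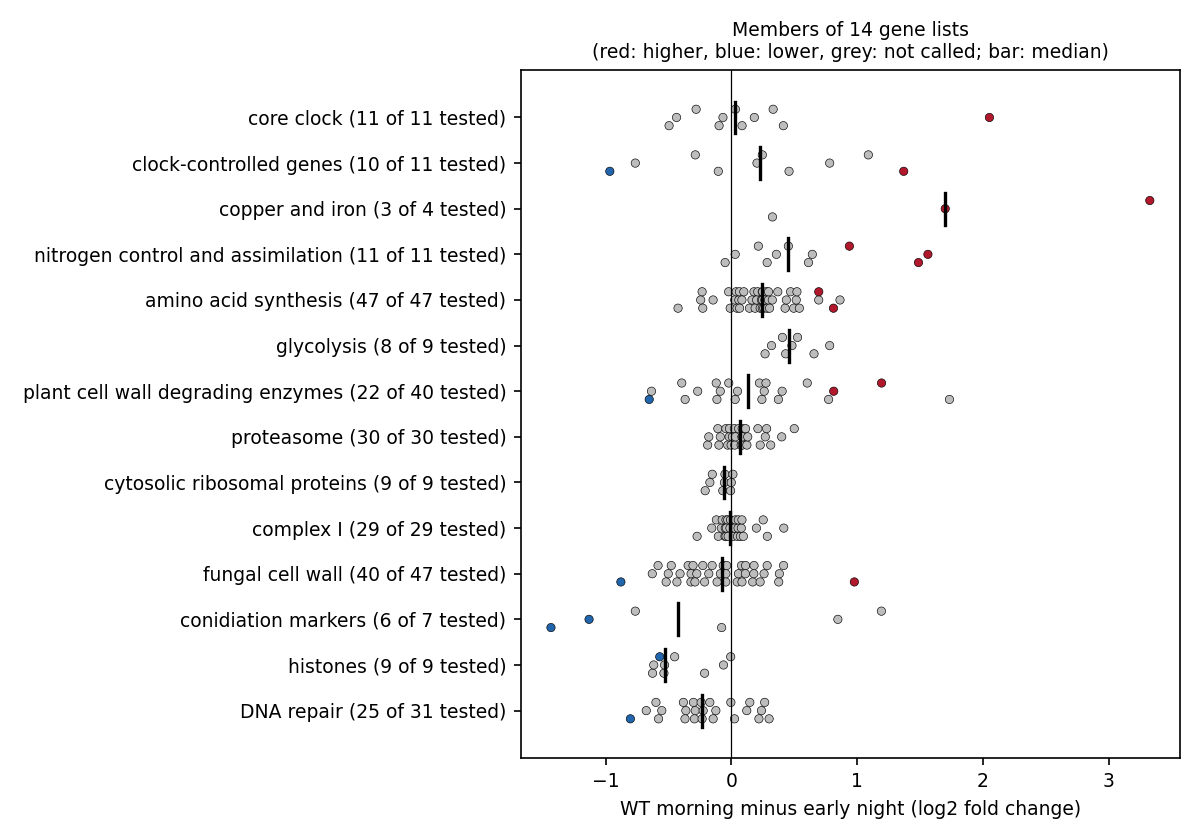
Log2 fold change (morning minus early night, WT) of the tested members of 14 gene lists, 1 point per gene, with the median of each list as a bar. Nitrogen and glycolysis members lie mostly right of 0 and histones left of it, with medians of 0.45, 0.46 and -0.53, while ribosomal proteins and complex I lie around 0.

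Besides NCU00829, *tcu-1* and *spr-7*, the 12 largest rises among genes with at least 5 CPM in the higher window were in genes without a symbol. NCU00031 had 8.73, 12.2 and 14.8 CPM in the morning and was at 0 in all 3 early night libraries. It was also at 0 at 0 h and at 18 h. With a floor of 3 counts in each early night library its morning mean was at least 23.1-fold higher, a bound that holds only if the deposited counts of this gene stand for reads. NCU02884 had 115, 82.0 and 294 CPM in the morning against 15.6, 6.63 and 9.66 CPM in the early night (4.00 ± 0.51, edgeR adjusted p = 0.00627). NCU01212 had a larger difference of 5.04 ± 1.12 that stood mainly on 1 culture, with 16.1, 7.98 and 129 CPM in the morning against 2.85, 1.39 and 0.728 CPM in the early night (adjusted p = 0.0437). NCU05126 had 190, 328 and 303 CPM in the morning against 49.6, 21.9 and 7.18 CPM in the early night (3.43 ± 0.54, adjusted p = 0.0125). NCU01735 had 350, 511 and 438 CPM in the morning against 62.6, 74.4 and 123 CPM in the early night (2.32 ± 0.26, adjusted p = 0.00345). NCU05629 had 6.03, 12.7 and 16.2 CPM in the morning against 1.93, 1.68 and 0.783 CPM in the early night (2.995 ± 0.43, adjusted p = 0.00835), NCU07095 had 31.8, 32.1 and 10.7 CPM in the morning against 5.02, 4.15 and 6.11 CPM in the early night (2.29 ± 0.38, adjusted p = 0.0151) and NCU08176 had 4.75, 11.5 and 12.0 CPM in the morning against 1.18, 2.04 and 2.59 CPM in the early night (2.18 ± 0.39, adjusted p = 0.0204). In NCU07095 the culture at 16 h was the lowest of the morning, and in the other 2 that at 12 h. The other rises in this paragraph were smaller. The short-chain dehydrogenase gene NCU01861 had 553, 465 and 456 CPM in the morning against 179, 120 and 149 CPM in the early night (1.72 ± 0.17, adjusted p = 0.0023). NCU08193 and its neighbour NCU08194 rose by 2.11 and 1.55, NCU04266 by 1.69 and the alcohol dehydrogenase gene NCU04823 by 1.73.

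Besides *acu-6*, the 12 largest falls were likewise in genes without a symbol. NCU00607 had 4.38, 15.3 and 2.79 CPM in the morning against 44.4, 42.3 and 48.6 CPM in the early night (-2.64 ± 0.40, edgeR adjusted p = 0.0111). NCU16445 had 39.4, 83.8 and 71.8 CPM in the morning against 511, 279 and 217 CPM in the early night (-2.37 ± 0.36, adjusted p = 0.0111). The smallest adjusted p among the falls, 0.0023, was shared by NCU06255 and NCU08715. NCU06255 had 4.31, 4.59 and 6.88 CPM in the morning against 26.3, 20.6 and 20.7 CPM in the early night, and NCU08715 had 6.47, 5.42 and 5.82 CPM in the morning against 22.7, 18.0 and 20.5 CPM in the early night. NCU04197, named a CipC protein, was level in the morning at 344, 345 and 351 CPM, against 1223, 910 and 809 CPM in the early night (-1.50 ± 0.16, adjusted p = 0.00345). NCU04205 had 0.840, 2.34 and 5.14 CPM in the morning against 14.7, 12.6 and 9.08 CPM in the early night, NCU16589 had 2.75, 0.771 and 0.720 CPM in the morning against 5.04, 5.75 and 7.76 CPM in the early night and NCU01972 had 1.25, 1.748 and 2.99 CPM in the morning against 8.70, 5.31 and 9.22 CPM in the early night. These 3 fell by 2.12, 2.04 and 1.89 from low levels. NCU09424 had 3.01, 6.77 and 12.7 CPM in the morning against 18.7, 30.6 and 27.3 CPM in the early night, a difference of -1.82 ± 0.37. NCU01391 had 268, 311 and 323 CPM in the morning against 825, 687 and 594 CPM in the early night (-1.22 ± 0.15) and NCU09832 had 6.13, 6.03 and 9.54 CPM in the morning against 19.5, 19.7 and 19.0 CPM in the early night (-1.43 ± 0.18), both with an adjusted p of 0.00593. NCU08455 fell by 2.01. The neighbours NCU09209 (galactose oxidase) and NCU09210 (dye-decolorising peroxidase) fell by 1.746 and 1.65.

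The 5 most abundant genes were *ccg-1*, *ccg-16* and 3 that were not called. NCU06110, a thiazole biosynthetic enzyme gene, had 59215, 54885 and 44884 CPM in the morning against 35040, 45215 and 46583 CPM in the early night (0.33 ± 0.17, edgeR adjusted p = 0.361). *nmt-1*, a gene of thiamine synthesis, had 51927, 53974 and 39077 CPM in the morning against 28994, 35636 and 37406 CPM in the early night (0.51 ± 0.17, adjusted p = 0.162). NCU00399, named a cell wall protein PhiA, had 26472, 27678 and 21496 CPM in the morning against 21967, 29117 and 30225 CPM in the early night, and its windows overlapped (-0.10 ± 0.17, adjusted p = 0.817).

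Of 5731 pairs of adjacent genes in which both were tested, 17 pairs were called in the same direction, 14 higher and 3 lower. Of single tested genes 2.47% were called higher and 1.11% lower. How many pairs these shares would give without any tie between neighbours was not worked out. A row of more than 2 called genes gives pairs that overlap. They included *tcu-1* with NCU00829, NCU08193 with NCU08194, *ce8-1* with *gh61-9*, and a row of NCU09504, NCU09505 and NCU09506, which rose by 1.13, 1.15 and 2.47. Gene order was taken from the RefSeq annotation of assembly NC12. As genes of one neighbourhood can share reads, the members of a pair may not be independent.

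The called genes were shorter than the rest. The median length was 2021 bp in the higher genes, 1873.5 bp in the lower genes and 2362 bp in all tested genes. In the shortest quartile of genes 62 were higher and 33 lower, and in the longest quartile 25 were higher and 9 lower. The median log2 difference was -0.040 in the shortest quartile and 0.040 in the longest. With the trend over length taken out of each library 290 genes were called, 248 of them among the 257, and with values multiplied by gene length 316 were called, 251 of them among the 257.

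The times outside the windows were not used for the calls, and each had 1 culture, so the course is a description. The 177 higher genes stood at a median of 0.31 above their early night mean at 8 h and 0.10 at 10 h on the log2(CPM + 1) scale. They were at 1.09, 1.01 and 0.87 in the morning window, and at 0.37, 0.38 and 0.45 at 18, 20 and 22 h. Both windows had chosen these genes, so the early night baseline tends to lie low in higher genes and high in lower genes. That alone can place the other times away from 0, and its share was not tested. At 22 h 138 of the 177 were above their early night mean. The 80 lower genes stood at a median of -0.13 at 8 h and 0.02 at 10 h, and at -0.38, -0.29 and -0.45 at 18, 20 and 22 h. Over the 12 times, the highest value of a higher gene fell at 12 h in 58 genes, at 14 h in 56 and at 16 h in 41, and outside the window most often at 22 h, in 8. As the windows chose these genes, a highest value in the morning window is partly built in. The lowest value of a higher gene fell most often at 10 h, in 49 of 177 genes. For the lower genes the highest value fell most often at 10 h too, in 22 of 80, followed by 2 h in 19. How often the extremes of all tested genes fell at 10 h was not worked out. The counts at 10 h may thus belong to that 1 culture and not to the called genes.

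**Figure D4:**
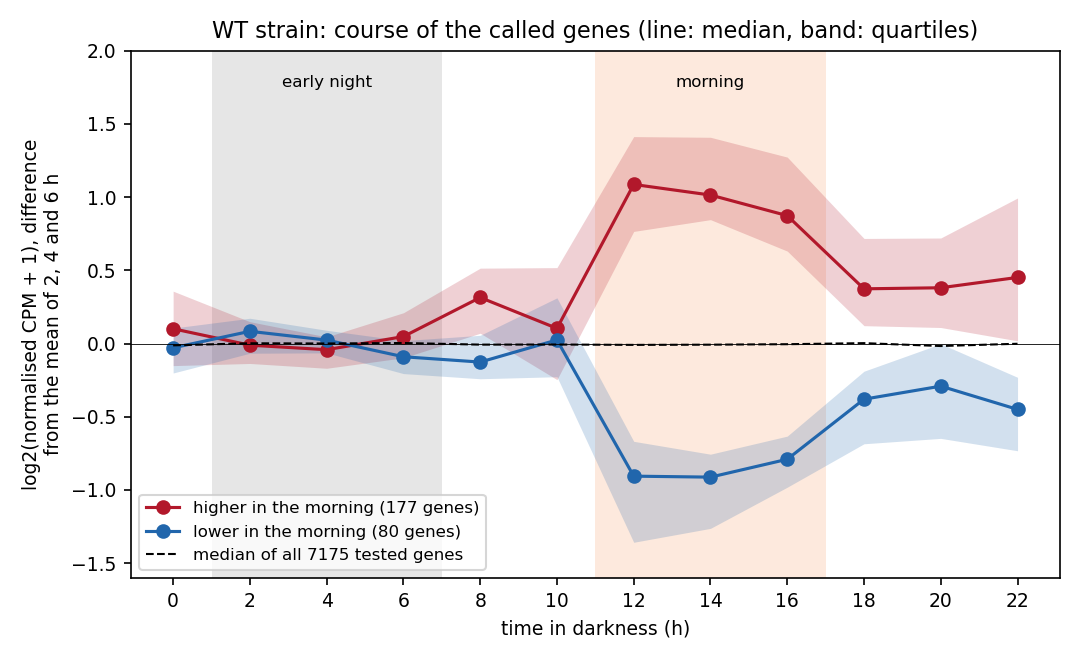
Course of the called genes over the 12 WT cultures, as the difference of log2(normalised CPM + 1) from the mean of 2, 4 and 6 h (line, median; band, quartiles); the shaded times are the windows that chose the genes. The higher genes lie near 0 at 10 h (0.10), at 1.09 at 12 h and at 0.45 at 22 h, from a baseline that helped to choose them.

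The study had listed circadian genes from another WT series. Of the 1146 that were tested here, 107 were higher in the morning (9.34%) and 44 were lower (3.84%), against 2.47 and 1.11% of all tested genes. Of 98 genes it listed at the second harmonic 3 were higher (3.06%) and none was lower, and of 445 at the third harmonic 3 were higher and 3 lower (0.674% each). Windows of this length average over part of a cycle of the shorter periods, so these shares do not compare the rhythms themselves.

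The same windows in ΔMSN1 gave values from cultures that had no part in the calls. The targeted gene *msn-1* was at 0 in 11 of the 12 ΔMSN1 libraries and at 0.0421 CPM in the other, at 10 h, against 26.2 to 47.2 CPM in the 12 WT libraries. In ΔMSN1 48 of 7223 genes were higher in the morning (0.665%) and 20 were lower (0.277%). Of the 172 genes higher in WT that were tested in ΔMSN1, 28 (16.3%) were called higher there and 125 (72.7%) had the same sign, against 44.6% of all genes tested in both that had a positive sign in ΔMSN1. The median log2 difference of the 172 genes was 0.40 in ΔMSN1 and 1.04 in WT. Of the 80 genes lower in WT, 4 (5%) were called lower in ΔMSN1, 1 was called higher and 57 (71.2%) had the same sign, against 55.4% of all genes. Their median was -0.14 in ΔMSN1 and -0.88 in WT. The WT medians are those of genes chosen for a difference in WT, so a smaller median in the other strain is no test of a strain difference. The count of calls in ΔMSN1 rested on single cultures too, at 251 genes without 2 h, 20 without 4 h, 39 without 6 h, 1 without 12 h, 24 without 14 h and 42 without 16 h.

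*frq* had 16.1, 15.1 and 13.8 CPM in the ΔMSN1 morning against 4.45, 4.33 and 4.71 CPM in the ΔMSN1 early night, a log2 difference of 1.73 that was called (edgeR adjusted p = 0.00518). *ccg-1* had 47437, 38437 and 37786 CPM in the ΔMSN1 morning against 15746, 13624 and 15958 CPM in the ΔMSN1 early night, a rise of 1.43. *tcu-3* (1.56) and NCU00829 (2.53) were called higher in ΔMSN1, and *tcu-1* had a difference of 2.24 with an adjusted p of 0.0557 by edgeR. NCU06326 (2.08), NCU01861 (1.86), NCU08412 (1.44) and *gh28-2* (1.61) were called higher as well, and NCU06255 (-1.95) and NCU08715 (-1.68) lower. *fl* had a difference of -0.96 in ΔMSN1 and was not called (adjusted p = 0.0976 by edgeR).

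The difference between the strains was tested as strain by window over 12 libraries, and 17 of 7233 genes passed (0.235%), 6 with a more positive difference in ΔMSN1 and 11 with a more negative one. Of these, 9 were among the genes higher in WT and 6 among those lower in WT. As the WT difference is part of the term, these counts are partly built in. *gh28-1* had the smallest p, with 4493, 3023 and 3680 CPM in the ΔMSN1 morning against 1556, 1632 and 1665 CPM in the ΔMSN1 early night, so that its rise in ΔMSN1 stood opposite to its fall in WT (log2 difference of differences, ΔMSN1 minus WT, 1.84 ± 0.21, edgeR adjusted p = 0.00496). *aap-8* had 14.3, 18.1 and 16.9 CPM in the ΔMSN1 morning against 32.3, 18.5 and 26.1 CPM in the ΔMSN1 early night (-2.22 ± 0.30, adjusted p = 0.0135). *gh61-9* had 18.2, 12.9 and 10.4 CPM in the ΔMSN1 morning against 21.1, 18.7 and 20.8 CPM in the ΔMSN1 early night (-1.73 ± 0.27, adjusted p = 0.0242). NCU04197 did not fall in ΔMSN1, with 1196, 963 and 1198 CPM in the ΔMSN1 morning against 1024, 1176 and 1129 CPM in the ΔMSN1 early night (1.49 ± 0.22, adjusted p = 0.0242). NCU00031, at 0 in the WT early night, had 3.39, 7.01 and 16.4 CPM in the ΔMSN1 morning against 18.3, 7.004 and 10.02 CPM in the ΔMSN1 early night (adjusted p = 0.0242). The nitrate genes had negative differences in ΔMSN1 (*nit-3* -0.95, *nit-10* -0.94, *nit-6* -0.33), but their cultures were far apart there, and the strains were not shown to differ. *nit-3* ran from 2.46 to 23.0 CPM in the ΔMSN1 early night alone (adjusted p of strain by window 0.34). The count of 17 moved to 1 without the WT culture at 4 h, to 11 without that at 12 or 16 h and to 4 without that at 14 h. It moved to 8 without the ΔMSN1 culture at 2 h, to 6 without that at 6 h and to 4 without that at 12, 14 or 16 h. With the trend over gene length taken out 8 genes passed.

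**Figure D5:**
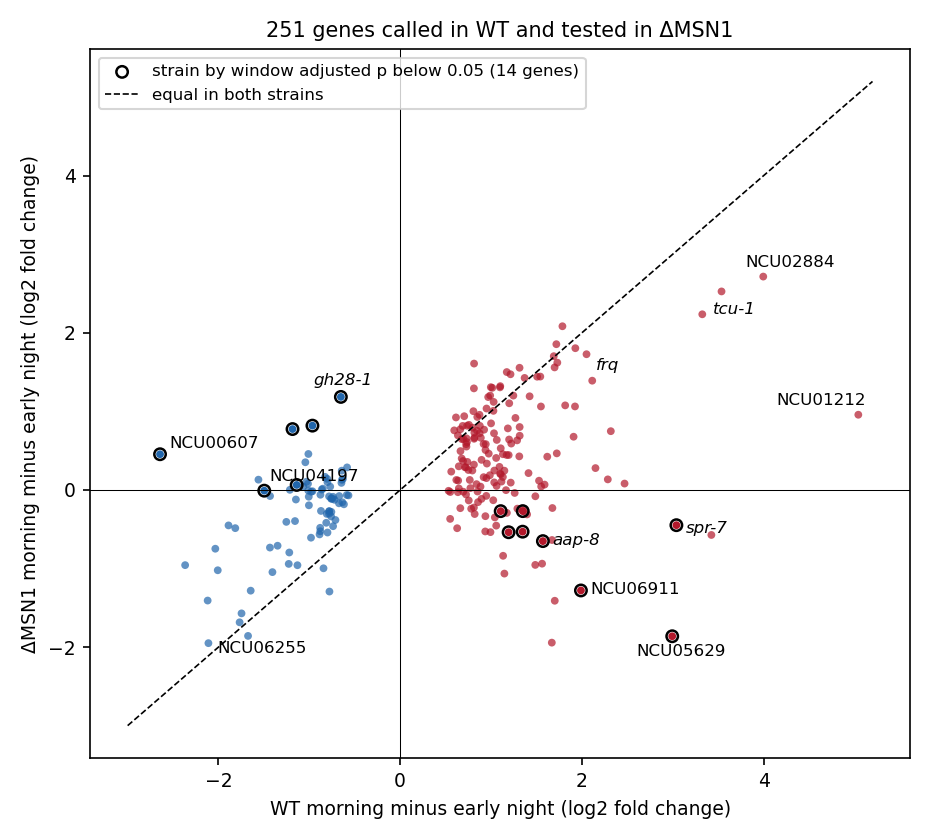
Log2 fold change between the windows in ΔMSN1 against that in WT, for 251 genes called in WT and tested in ΔMSN1 (red, higher in WT morning; blue, lower); circles mark 14 genes past the test of strain by window and the dashed line marks equal differences. *frq* and *tcu-1* lie near or below the line, with 1.73 and 2.24 in ΔMSN1 and 2.05 and 3.33 in WT, and *gh28-1* and *aap-8* lie on opposite sides of 0 in the strains; NCU00031 is not drawn.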

How the data were processed

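RNA-seq of poly(A) RNA was used from 6 WT libraries, with 6 of ΔMSN1 at the same times. The authors deposited estimated counts per gene made with kallisto version 0.43.1, and which transcriptome build they used is not given here. In 489 low genes the smallest deposited value fell with gene length (Pearson r = -0.795 between the natural logs, slope -1.33, across genes), and 86.5% of their values lay at 1 to 1.3 or 1.9 to 2.5 times it. The deposited values may thus have been rescaled per length, so they may not stand for reads, and the edgeR spread is that of the deposited unit.

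Estimated counts were rounded to whole numbers and tested with edgeR 4.0.16 (quasi-likelihood F test, TMM scaling, R 4.3.3) over genes whose CPM averaged 2 or more in the libraries compared. P-values were adjusted by the Benjamini-Hochberg method over all genes tested, with a threshold of 0.05. A difference is log2 of morning over early night. Each culture was counted as a replicate of its window, with 3 a window. In ΔMSN1 the same test was run, and the strains were compared by a strain by window term over 12 libraries. Alternatives were limma-voom (limma 3.58.1), DESeq2 1.42.0, a minimum of 5 CPM, no filter, a filter over 12 WT libraries, DESeq2 size factors, values times gene length, the length trend taken out, a slope within the windows, a fit over the libraries of both strains, an adjusted p of 0.1 and leaving out each culture. Thinning to one depth and a fit of strain by window with time as a block were added after seeing the data. The test was tried on simulated data. DESeq2 gave no adjusted p for 280 genes.

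The genes named were the 12 largest rises and 12 largest falls among called genes with at least 5 CPM in the higher window and windows that did not overlap, the 5 smallest p in each direction, all genes of the 3 clock lists, up to 4 of each other list, the 6 smallest p for strain by window and the 5 most abundant genes. Other called genes with a symbol, neighbours and genes past the strain by window test were chosen after their values were seen. The members and lists were chosen with earlier results of these data known. The 38 lists by symbol follow RefSeq symbols, held by 1118 of 9730 genes, and 3 lists are those of the study. Other names are from the study's tables. RefSeq (assembly NC12) served for names and for which genes neighbour each other. The authors' own comparisons were not used. A result for a gene of DNA repair is not reported here.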

Additional observations from a re-analysis of the deposited data

Results flagged for a closer look

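The window difference itself differed between ΔMSN1 and WT in 17 of 7233 genes by the edgeR test of strain by window, which is why these genes are listed. The term is the ΔMSN1 difference minus the WT difference in log2 units, and each difference is morning minus early night. A fall in WT thus makes the term more positive by itself and a rise makes it more negative. The WT directions given below are therefore partly built in. Without the WT culture at 4 h 1 gene passed. No cause was tested.

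Of the 6 genes with a more positive difference in ΔMSN1, all were lower in the WT morning. *gh28-1* had 3023 to 4493 CPM in the ΔMSN1 morning against 1556 to 1665 CPM in the ΔMSN1 early night, with 1640 to 1968 CPM in the WT morning against 2667 to 2929 CPM in the WT early night (1.84 ± 0.21 SE, adjusted p = 0.00496). NCU04197 had 963 to 1198 CPM in the ΔMSN1 morning against 1024 to 1176 CPM in the ΔMSN1 early night, with 344 to 351 CPM in the WT morning against 809 to 1223 CPM in the WT early night (1.49 ± 0.22 SE, adjusted p = 0.0242). NCU06170 had 411 to 428 CPM in the ΔMSN1 morning against 148 to 300 CPM in the ΔMSN1 early night, with 155 to 205 CPM in the WT morning against 336 to 516 CPM in the WT early night (1.97 ± 0.33 SE, adjusted p = 0.0315). NCU08720 had 2526 to 3818 CPM in the ΔMSN1 morning against 1296 to 2129 CPM in the ΔMSN1 early night, with 1216 to 2006 CPM in the WT morning against 2712 to 3461 CPM in the WT early night (1.79 ± 0.32 SE, adjusted p = 0.0415). NCU00607 had 124 to 264 CPM in the ΔMSN1 morning against 106 to 151 CPM in the ΔMSN1 early night, with 2.79 to 15.3 CPM in the WT morning against 42.3 to 48.6 CPM in the WT early night (3.09 ± 0.56 SE, adjusted p = 0.0469). NCU09844 had 25.4 to 30.2 CPM in the ΔMSN1 morning against 23.7 to 27.0 CPM in the ΔMSN1 early night, with 4.44 to 6.82 CPM in the WT morning against 11.3 to 13.4 CPM in the WT early night (1.199 ± 0.22 SE, adjusted p = 0.0495).

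Of the 11 genes with a more negative difference in ΔMSN1, 9 were called higher in the WT morning, and NCU05079 and NCU09992 were not called in WT. *aap-8* had 14.3 to 18.1 CPM in the ΔMSN1 morning against 18.5 to 32.3 CPM in the ΔMSN1 early night, with 50.7 to 70.2 CPM in the WT morning against 16.0 to 22.9 CPM in the WT early night (-2.22 ± 0.30 SE, adjusted p = 0.0135). NCU06911 had 11.2 to 14.9 CPM in the ΔMSN1 morning against 18.7 to 47.5 CPM in the ΔMSN1 early night, with 72.6 to 81.8 CPM in the WT morning against 14.0 to 29.96 CPM in the WT early night (-3.26 ± 0.46 SE, adjusted p = 0.0165). *gh61-9* had 10.4 to 18.2 CPM in the ΔMSN1 morning against 18.7 to 21.1 CPM in the ΔMSN1 early night, with 86.2 to 101 CPM in the WT morning against 32.5 to 47.0 CPM in the WT early night (-1.73 ± 0.27 SE, adjusted p = 0.0242). NCU00031 had 3.39 to 16.4 CPM in the ΔMSN1 morning against 7.004 to 18.3 CPM in the ΔMSN1 early night, with 8.73 to 14.8 CPM in the WT morning against 0 CPM in the WT early night (adjusted p = 0.0242, with no fold given). NCU09874 had 25.6 to 40.1 CPM in the ΔMSN1 morning against 33.6 to 44.2 CPM in the ΔMSN1 early night, with 68.8 to 77.1 CPM in the WT morning against 24.2 to 34.8 CPM in the WT early night (-1.62 ± 0.26 SE, adjusted p = 0.0242). NCU08148 had 27.6 to 34.7 CPM in the ΔMSN1 morning against 33.8 to 40.9 CPM in the ΔMSN1 early night, with 62.5 to 87.2 CPM in the WT morning against 30.2 to 36.5 CPM in the WT early night (-1.38 ± 0.22 SE, adjusted p = 0.025). *spr-7* had 15.5 to 19.1 CPM in the ΔMSN1 morning against 15.3 to 40.0 CPM in the ΔMSN1 early night, with 104 to 353 CPM in the WT morning against 25.5 to 28.7 CPM in the WT early night (-3.49 ± 0.59 SE, adjusted p = 0.0315). NCU05629 had 0.377 to 2.23 CPM in the ΔMSN1 morning against 1.80 to 6.29 CPM in the ΔMSN1 early night, with 6.03 to 16.2 CPM in the WT morning against 0.783 to 1.93 CPM in the WT early night (-4.85 ± 0.86 SE, adjusted p = 0.0415). NCU05079 had 2.496 to 4.02 CPM in the ΔMSN1 morning against 7.56 to 12.1 CPM in the ΔMSN1 early night, with 23.8 to 35.4 CPM in the WT morning against 9.01 to 19.9 CPM in the WT early night (-2.77 ± 0.51 SE, adjusted p = 0.0495). NCU01065 had 6.43 to 9.71 CPM in the ΔMSN1 morning against 8.44 to 13.9 CPM in the ΔMSN1 early night, with 25.2 to 37.2 CPM in the WT morning against 8.91 to 15.3 CPM in the WT early night (-1.88 ± 0.35 SE, adjusted p = 0.0495). NCU09992 had 46.1 to 60.8 CPM in the ΔMSN1 morning against 78.4 to 104 CPM in the ΔMSN1 early night, with 79.9 to 140 CPM in the WT morning against 40.2 to 63.6 CPM in the WT early night (-1.72 ± 0.32 SE, adjusted p = 0.04997).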

How the results depend on the processing

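The WT count of 257 genes stayed between 184 and 331 under the other tools, scalings, filters and corrections, and was 523 at an adjusted p of 0.1. Leaving out 1 culture gave 42 to 405 genes. In ΔMSN1 the 68 called genes became 168 with DESeq2 and 1 to 251 without 1 culture. For strain by window the 17 genes became 43 with DESeq2, 8 with the length trend taken out and 1 to 21 without 1 culture. Of the 257 genes 239 were also called by limma-voom, 214 by DESeq2 and 208 after thinning to one depth, an alternative chosen after seeing the data, and none changed direction in any fit of the WT windows. In all 119 genes were called in the 11 settings that keep every culture. Among called genes 68.9% were higher, against 70.4% with DESeq2 size factors and 69.3% with the length trend taken out. No paired analysis was possible between the windows because they share no time and the labels give no replicate numbers. For strain by window, where both strains have the same 6 times, a fit with time as a replicate block, chosen after seeing the data, called 12 genes, 2 more positive in ΔMSN1 and 10 more negative, and 8 of them were among the 17. The 95% interval of the WT difference lay within 2-fold either way in 86.7% of genes and reached past it in the others.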
